A study of Homo sapiens with 6 samples.

Results

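The keratin gene family was taken as every row of the expression table whose symbol is KRT followed by a number and at most one letter from A to C, which gave 49 of 21293 genes. Expression was measured by RNA sequencing of polyadenylated RNA from H2087-LCC, a human lung adenocarcinoma line that the labels describe as a dormant metastatic derivative and that was obtained by selection of latency-competent cells in mice. Each of 3 groups held 2 libraries, which the study describes as technical replicates, so every p-value below measures only the spread between those libraries. In the SB group the cells were kept for 3 days in SB505124, which inhibits the TGFβ receptor kinase and sets a baseline with endogenous TGFβ signaling blocked. The TGFβ groups received TGFβ, the cytokine transforming growth factor β, for 3 days or 7 days. No SB library was made at 7 days, so 7 days against SB also differs in time in culture. So does 7 days against 3 days of TGFβ, and both TGFβ groups were set against the same SB libraries. All groups were the same cell line with no engineered allele named in the labels, and the comparisons ask how the keratins stood when TGFβ signaling was blocked, active for a short time, or sustained.

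Keratins are the intermediate filament proteins of epithelial cells. A filament is built from pairs of an acidic type I and a basic or neutral type II keratin, so a cell normally makes members of both types. Single-layered epithelia such as that of the lung airspace, and adenocarcinomas, use KRT8 with KRT18 and add KRT7 and KRT19. Basal cells of layered epithelia use KRT5 with KRT14, wounded epithelia KRT6 with KRT16 and KRT17, esophagus and mouth KRT4 with KRT13, cornea KRT3 with KRT12, and the hair follicle a large set of its own. Fewer simple keratins and more vimentin is a textbook feature of epithelial-mesenchymal transition (EMT).

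The values are normalized read counts, deposited as whole numbers, and library totals lay between 34306283 and 36340734. A mean of at least 10 normalized counts over the 6 libraries was reached by 18 of the 49 keratins, which were KRT3, KRT4, KRT6A, KRT6B, KRT7, KRT8, KRT10, KRT14, KRT15, KRT16, KRT18, KRT19, KRT75, KRT78, KRT79, KRT80, KRT81 and KRT86. Of these, 6 are type I and 12 type II, and 6 had a mean under 10 in at least 1 group, so they passed only through the groups where they were high. Of the 31 others, KRT34, a hair keratin, was the sole member with 10 or more counts in a library. It had 13 and 9 in SB, 4 and 4 at 3 days and 0 and 1 at 7 days. The remaining 30 stayed at 9 or fewer in every library. KRT2, KRT5, KRT6C, KRT12, KRT13, KRT17, KRT20, KRT23, KRT31, KRT32, KRT71, KRT74, KRT76, KRT77, KRT82, KRT83 and KRT222 made up the 17 with 1 to 9 counts in their highest library. KRT1, KRT25, KRT27, KRT28, KRT33B, KRT37, KRT38, KRT39, KRT40, KRT72, KRT73, KRT84 and KRT85 were the 13 at 0 throughout.

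All 49 members matched a gene of the GENCODE annotation on GRCh37, the assembly also called hg19 that the reads were mapped to. They lie in a pair of clusters, 27 on chromosome 12 and 22 on chromosome 17. KRT18 is the one type I gene in the chromosome 12 cluster. Promoter sequences come from a set of RefSeq promoters on GRCh38.p14 in which 28 keratins were found, all on the minus strand. A keratin missing from this set is not thereby missing from RefSeq. Of the keratins with a mean of at least 10, only KRT3, KRT4, KRT8, KRT10, KRT75 and KRT79 were among the 28. The motif shares below thus describe mostly members under that mean. The 250 bases before the start are shown for 4 genes of the chromosome 12 cluster whose results differ most plainly. KRT75 (chr12:52434372-52434621, minus strand) fell furthest with time. KRT3 (chr12:52796118-52796367), KRT4 (chr12:52814117-52814366) and KRT79 (chr12:52834312-52834561) stand side by side on the minus strand and moved in 3 different ways. Capitals mark matches on either strand to CAGGTG, the E-box that EMT repressors bind, TGANTCA, the AP-1 site, CAGACA, a SMAD-binding element of the CAGA type, and TATAAA, the TATA box.
KRT75: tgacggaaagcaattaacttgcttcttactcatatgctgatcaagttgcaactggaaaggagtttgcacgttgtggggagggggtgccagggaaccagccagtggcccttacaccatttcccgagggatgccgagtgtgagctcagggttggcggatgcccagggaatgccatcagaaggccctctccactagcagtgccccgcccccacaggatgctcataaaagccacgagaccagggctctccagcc
KRT3: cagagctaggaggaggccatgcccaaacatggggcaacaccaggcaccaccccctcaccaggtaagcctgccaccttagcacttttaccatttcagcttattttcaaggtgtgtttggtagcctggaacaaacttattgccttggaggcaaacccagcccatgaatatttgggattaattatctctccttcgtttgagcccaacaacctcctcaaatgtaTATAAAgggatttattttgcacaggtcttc
KRT4: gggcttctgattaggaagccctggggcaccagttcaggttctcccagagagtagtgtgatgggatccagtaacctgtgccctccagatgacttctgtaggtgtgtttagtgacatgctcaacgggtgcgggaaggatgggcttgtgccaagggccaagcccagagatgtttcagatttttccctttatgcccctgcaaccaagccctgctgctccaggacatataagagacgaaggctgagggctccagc
KRT79: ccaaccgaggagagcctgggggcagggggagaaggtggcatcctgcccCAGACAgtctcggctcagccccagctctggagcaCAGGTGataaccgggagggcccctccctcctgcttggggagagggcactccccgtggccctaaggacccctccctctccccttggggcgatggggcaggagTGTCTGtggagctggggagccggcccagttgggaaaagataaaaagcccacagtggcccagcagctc

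KRT79 held CAGGTG and 2 copies of CAGACA, one of them written as its reverse complement, and KRT3 held TATAAA. KRT75 and KRT4 held none of the 4 motifs in this window, which says only that those letters are not there. CAGGTG stood in 5 of 28 keratin promoters and in 17.5% of 27305 promoters of the same length. CAGACA stood in 6 of 28, against 13.7% of all promoters. TGANTCA stood in 0 of 28, against 6.7% of all. TATAAA stood in 17 of 28 keratin promoters, against 11.3% of all. These are matches of letters and were not tied to binding or to any change in level.

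With limma at an adjusted p under 0.05, 12 of the 18 keratins differed between 3 days of TGFβ and SB, 5 higher and 7 lower. Among all 14395 genes with a mean of at least 10, 29% passed, 14.9% higher and 14% lower. At 7 days against SB 12 of 18 passed again, 6 higher and 6 lower, where 54.5% of all genes passed, 27.7% higher and 26.9% lower. Between 7 and 3 days 8 passed, 4 higher and 4 lower, where the background was 33.2%, with 17% higher and 16.2% lower. At this threshold the share of keratins was thus near that of all genes at 7 days and between the TGFβ times. The sizes stood further apart than the counts. With an absolute log2 fold change over 1 asked for as well, 5 keratins were higher and 6 lower at 3 days against SB, where 4.69% and 4.11% of all genes were. At 7 days against SB it was 6 and 5, where 9.82% and 6.85% of all genes were, and between the TGFβ times 3 and 2, where 4.63% and 1.9% were. The median absolute log2 fold change of the 18 keratins was 1.44 at 3 days against SB, 1.31 at 7 days against SB and 0.45 between the TGFβ times. All genes tested had 0.24, 0.41 and 0.27. The signed medians were -0.11, 0.11 and 0.21 for the keratins and -0.02, -0.00081 and 0.02 for all genes, all near 0. Since 6 members passed the filter only through the groups where they were high, these counts and medians describe the family and do not set it apart.

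**Figure D1:**
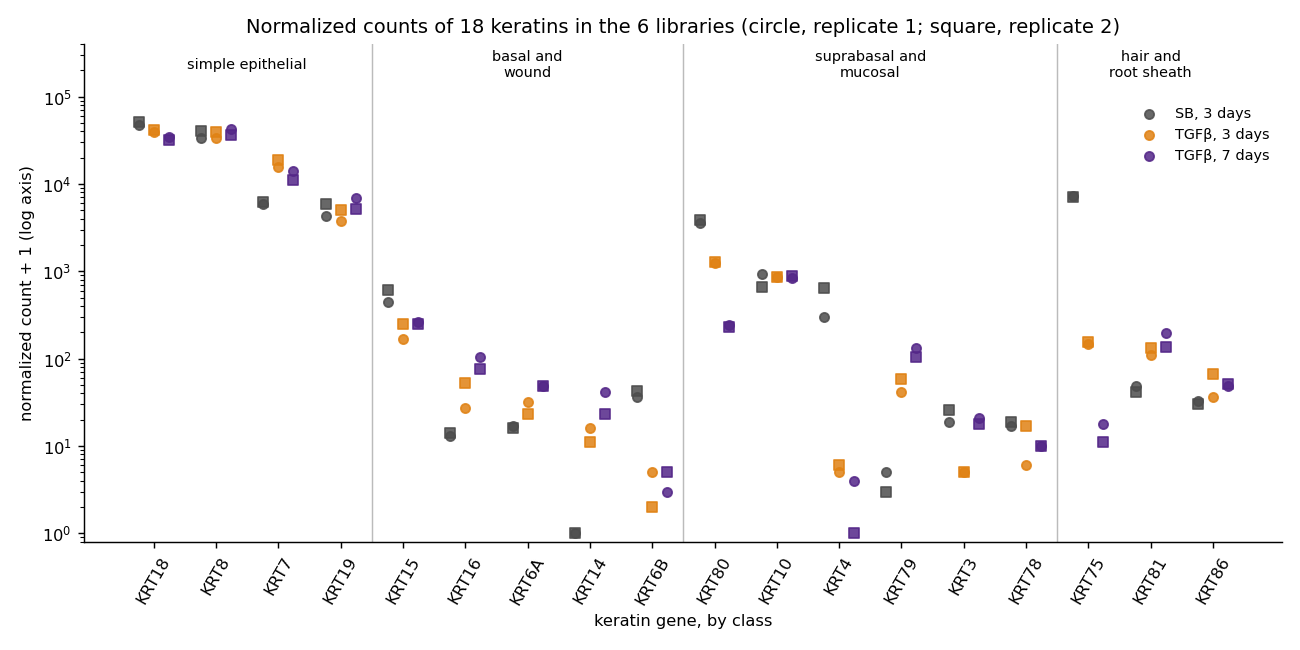
Normalized counts plus 1, on a log axis, of the 18 keratins with a mean of at least 10, by class; grey points are SB, orange points TGFβ for 3 days and purple points TGFβ for 7 days, with a circle for replicate 1 and a square for replicate 2. KRT75 steps down from 7309 and 7175 to 17 and 10, KRT79 steps up from 4 and 2 to 133 and 102, and KRT8 and KRT10 stay level.

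The simple epithelial keratins held most of the signal, and they did not move as one. KRT8, the type II partner of KRT18 and the base of the simple filament network, had 33960 and 39833 normalized counts in SB, 33341 and 39167 at 3 days and 42692 and 36786 at 7 days. The 3 groups overlapped. Against SB the log2 fold change was -0.03 at 3 days, with a 95% interval from -0.26 to 0.21 (limma adjusted p = 0.889), and 0.11 at 7 days, with an interval from -0.13 to 0.35 (limma adjusted p = 0.427). KRT18, its type I partner, had 47266 and 50793 in SB, 38965 and 41257 at 3 days and 34714 and 31757 at 7 days. Each group lay wholly below the one before it. Its log2 fold change was -0.29 ± 0.08 (SE) at 3 days (limma adjusted p = 0.0215) and -0.56 ± 0.08 at 7 days (limma adjusted p = 0.000144), which is 1.22-fold and 1.48-fold lower than SB in the means. The 3-day call was lost without SB replicate 2 (limma adjusted p = 0.072), without TGFβ replicate 1 (0.163) and without TGFβ replicate 2 (0.0509). It was also lost without a filter on low values (0.115), in limma without a trend (0.100) and with only the 4 libraries compared (0.051). Of the exonic bases of KRT18, 20% overlap other genes, among them KRT8 on the opposite strand, and the library kit does not mark strand. Pseudogenes and other genes also hold 22.1% and 22.7% of the 50-base stretches of KRT8 and KRT18.

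KRT7, a type II keratin of glandular epithelium and the usual marker of lung adenocarcinoma, rose instead. It had 5860 and 6183 in SB, 15440 and 18905 at 3 days and 13979 and 11230 at 7 days. No TGFβ library fell as low as SB. The 3-day mean was 2.85-fold higher, a log2 fold change of 1.5 ± 0.12 (limma adjusted p = 1.85e-06), and the 7-day mean 2.09-fold higher, with 1.06 ± 0.12 (limma adjusted p = 1.57e-05). From 3 to 7 days it fell by 0.45 ± 0.12 on the log2 scale (limma adjusted p = 0.0131), a call lost without TGFβ 3-day replicate 2 (0.113) or 7-day replicate 2 (0.165), without a filter on low values (0.177) and in limma without a trend (0.0928). KRT19, a small type I keratin of ducts and airways, had 4333 and 5857 in SB, 3785 and 5076 at 3 days and 6809 and 5218 at 7 days. SB overlapped both TGFβ groups, with log2 fold changes of -0.20 at 3 days (limma adjusted p = 0.406) and 0.24 at 7 days (limma adjusted p = 0.242). Both 7-day libraries lay above both 3-day libraries, by 0.44 ± 0.17 on the log2 scale (limma adjusted p = 0.0619). That difference passed with median-of-ratios scaling (limma adjusted p = 0.0474), equal upper quartiles (0.0428), only the 4 libraries compared (0.0446) and the replicate block (0.0146). It missed the threshold, among other settings, without a trend (limma adjusted p = 0.211), without a filter on low values (0.374) and with equal library totals (0.0895). With 1 TGFβ library left out it ran from 0.23 to 0.66 on the log2 scale. KRT20, a keratin of the gut lining, and KRT23 did not exceed 1 and 3 counts. KRT7 lies at chr12:52626304-52645970, KRT8 at chr12:53290971-53343738, KRT18 at chr12:53342655-53346690 and KRT19 at chr17:39679869-39684560.

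Among the basal and wound keratins 2 rose, 2 fell and KRT6A missed the threshold at 3 days, and 3 rose and 2 fell at 7 days. KRT14, the type I keratin of basal cells, was 0 in both SB libraries, 15 and 10 at 3 days and 41 and 22 at 7 days. Against a floor of 3 counts per SB library it was at least 4.17-fold higher at 3 days and at least 10.5-fold higher at 7 days. The fitted log2 fold changes, 3.73 (limma adjusted p = 0.000178) and 4.96 (limma adjusted p = 8.48e-06), depend on the pseudocount of 1. Between 7 and 3 days the difference was 1.23 ± 0.51 (limma adjusted p = 0.084). KRT14 was not tested without 7-day replicate 1, since its mean then fell below 10. KRT5, the type II partner of KRT14 in basal cells, had 2 and 1 in SB, 0 and 3 at 3 days and 3 and 5 at 7 days, so it stayed under the filter. KRT5 and the other keratins under a mean of 10 that are given values here as filament partners were chosen after their values were seen.

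KRT16, the type I keratin of wounded and fast-growing epidermis, had 12 and 13 in SB, 26 and 51 at 3 days and 102 and 75 at 7 days. Each group lay above the one before it. The mean was 3.08-fold higher at 3 days, log2 fold change 1.47 ± 0.34 (limma adjusted p = 0.00694), and 7.08-fold higher at 7 days, 2.71 ± 0.34 (limma adjusted p = 4.20e-05). The 3-day call was lost without TGFβ replicate 2, where the log2 fold change was 1.0 (limma adjusted p = 0.082), and without a filter on low values (0.119). KRT6A, its type II partner, had 16 and 15 in SB, 31 and 22 at 3 days and 48 and 48 at 7 days. It was 3.10-fold higher than SB at 7 days, 1.57 ± 0.30 (limma adjusted p = 0.000973). At 3 days the log2 fold change was 0.72 (limma adjusted p = 0.0988).

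KRT6B, a close relative of KRT6A with a like role in nail and wound epidermis, went the other way. It had 35 and 42 in SB, 4 and 1 at 3 days and 2 and 4 at 7 days. The fitted log2 fold change was -3.64 ± 0.55 at 3 days (limma adjusted p = 0.000416) and -3.34 ± 0.55 at 7 days (limma adjusted p = 0.000331). With other pseudocounts, filters and scalings these ranged from -3.90 to -2.56 and from -3.53 to -2.45. It was not tested without SB replicate 2, since its mean then fell below 10. KRT6A at chr12:52880960-52887041 and KRT6B at chr12:52840435-52845930 lie 2 places apart in the cluster. They are near-identical in part, with 39.2% and 46.6% of the 50-base stretches of their transcripts also found in other genes, so their counts are uncertain. KRT6C, between them, reached 1 count.

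KRT15, a type I keratin of basal and progenitor cells, fell. It had 443 and 617 in SB, 166 and 247 at 3 days and 265 and 246 at 7 days, with no overlap between SB and either TGFβ group. The mean was 2.57-fold lower at 3 days, log2 fold change -1.36 ± 0.21 (limma adjusted p = 0.000376), and 2.07-fold lower at 7 days, -1.03 ± 0.21 (limma adjusted p = 0.0012). Without a filter on low values both calls were lost (limma adjusted p = 0.0702 and 0.0687). KRT17, which wounded epithelium pairs with KRT6, had 1 and 1 in SB, 2 and 2 at 3 days and 4 and 6 at 7 days. KRT14 lies at chr17:39738531-39743147, KRT15 at chr17:39669997-39678781 and KRT16 at chr17:39766030-39772151. KRT14 and KRT16 share 24.2% and 21.8% of their 50-base stretches with other genes, each other included.

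**Figure D2:**
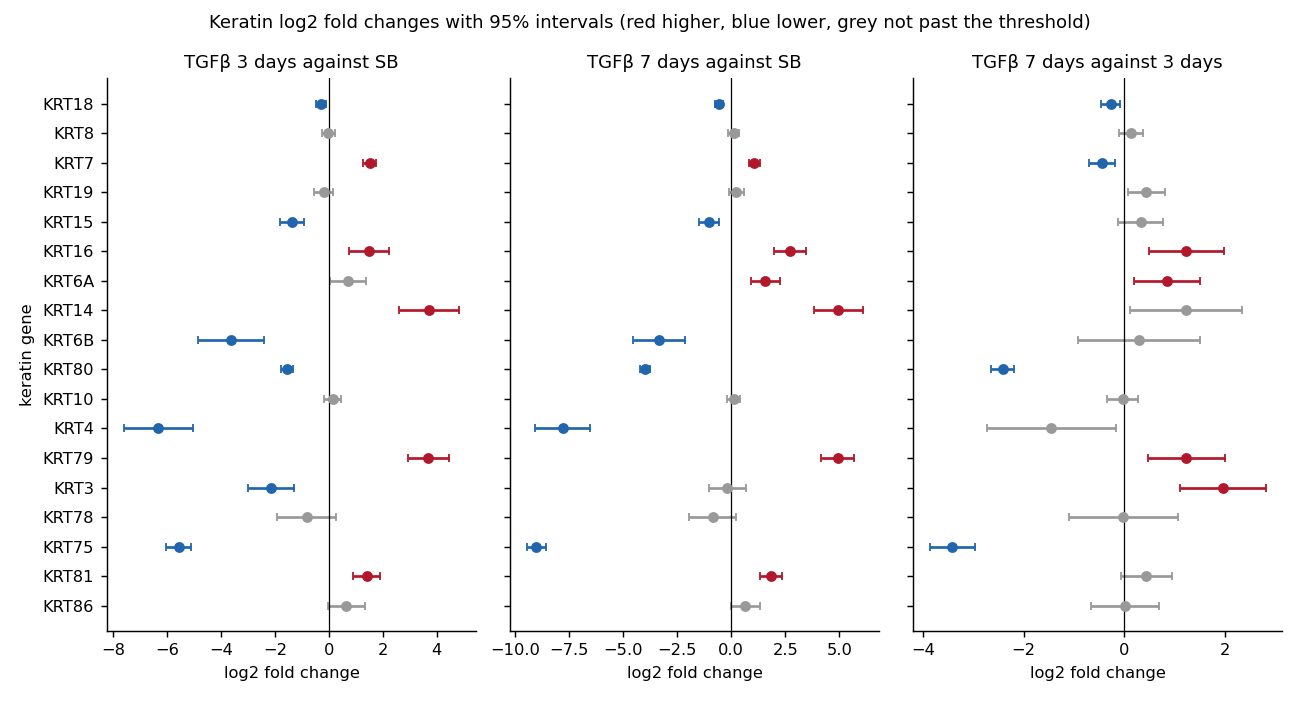
Log2 fold changes of the 18 keratins in the 3 comparisons from limma, with 95% intervals; the x axes differ in range, red marks higher, blue lower and grey not past an adjusted p of 0.05. KRT75 and KRT80 lie left of 0 in all 3 panels, and KRT3 lies at -2.15 at 3 days against SB and at 1.96 at 7 days against 3 days.

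The keratins of upper epidermal layers and moist mucosa included the steady member KRT10 and some of the widest moves. KRT80, a type II keratin of many epithelia that associates with desmosomes and cell edges, had 3536 and 3862 in SB, 1235 and 1286 at 3 days and 240 and 230 at 7 days. The steps between groups were many times the gaps within them. The mean was 2.94-fold lower at 3 days, log2 fold change -1.55 ± 0.10 (limma adjusted p = 5.50e-07), and 15.7-fold lower at 7 days, -3.97 ± 0.10 (limma adjusted p = 9.61e-11). Between the TGFβ times it fell by a further 2.42 ± 0.10 on the log2 scale (limma adjusted p = 1.69e-07). KRT80 lies at chr12:52562780-52585798.

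KRT4, the type II keratin of esophageal and oral mucosa, had 302 and 648 in SB, 4 and 5 at 3 days and 3 and 0 at 7 days. The SB libraries differed from each other by a wide margin, yet both stood far above every TGFβ library. The mean at 3 days was 106-fold lower than SB, log2 fold change -6.34 ± 0.59 (limma adjusted p = 8.15e-06). At 7 days the fitted value was -7.79 ± 0.59 (limma adjusted p = 6.26e-07), and it ran from -8.39 to -6.15 with other pseudocounts, filters and scalings. Without 7-day replicate 1 it was -8.79 and without 7-day replicate 2 it was -6.79. SFTPB, a surfactant protein of alveolar cells, also differed between the SB libraries, with 1104 and 8273, and its part in the KRT4 values was not tested. KRT13, the type I partner of KRT4 in mucosa, had 7 and 4 in SB, 4 and 4 at 3 days and 8 and 8 at 7 days.

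KRT79, a type II keratin of hair canal and sebaceous duct cells, rose from 4 and 2 in SB to 41 and 58 at 3 days and 133 and 102 at 7 days. Each group lay above the one before it. The log2 fold change was 3.68 ± 0.35 at 3 days (limma adjusted p = 9.66e-06) and 4.92 ± 0.35 at 7 days (limma adjusted p = 3.58e-07). Other pseudocounts, filters and scalings gave from 2.76 to 3.88 and from 3.94 to 5.12. KRT3, the type II keratin of cornea, had 18 and 25 in SB, 4 and 4 at 3 days and 20 and 17 at 7 days. It was low at 3 days alone, with SB and 7 days overlapping. The differences were -2.15 ± 0.39 on the log2 scale at 3 days against SB (limma adjusted p = 0.00149), 1.96 ± 0.39 at 7 days against 3 days (limma adjusted p = 0.00317) and -0.19 at 7 days against SB, with an interval from -1.05 to 0.66 (limma adjusted p = 0.697). KRT12, its type I partner in cornea, did not exceed 1 count.

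KRT10, the type I keratin of differentiating epidermis, had 922 and 668 in SB, 867 and 868 at 3 days and 833 and 871 at 7 days. The TGFβ libraries lay between the SB libraries. The log2 fold changes were 0.14 at 3 days, with an interval from -0.17 to 0.45 (limma adjusted p = 0.484), and 0.12 at 7 days, from -0.19 to 0.43 (limma adjusted p = 0.503). Without SB replicate 1 it passed the threshold as higher, at 0.38 and 0.35 (limma adjusted p = 0.0396 and 0.0322). KRT1, its type II partner in epidermis, was 0 in every library. KRT78, a type II keratin of layered epithelium, had 16 and 18 in SB, 5 and 16 at 3 days and 9 and 9 at 7 days. It had log2 fold changes of -0.83 (limma adjusted p = 0.238) and -0.85 (limma adjusted p = 0.169).

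Of the hair and root sheath keratins only KRT75, KRT81 and KRT86 reached a mean of 10. KRT75, the type II keratin of the companion layer of the hair follicle, was the third highest type II keratin in SB per kilobase. It had 7309 and 7175 in SB, 147 and 153 at 3 days and 17 and 10 at 7 days. The mean was 48.3-fold lower at 3 days and 536-fold lower at 7 days. The log2 fold change was -5.58 ± 0.20 (limma adjusted p = 3.85e-09) and -9.01 ± 0.20 (limma adjusted p = 3.92e-11), and between the TGFβ times it fell by 3.42 ± 0.20 (limma adjusted p = 1.63e-06). KRT75 lies at chr12:52817854-52828155. None of the 50-base stretches of its transcripts stood in another gene to the first decimal (0.0%), although 10.2% of its exonic bases overlap a gene on the other strand.

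KRT81, a type II keratin of the hair cortex, had 48 and 41 in SB, 108 and 132 at 3 days and 194 and 136 at 7 days. Both TGFβ groups lay above SB, with a log2 fold change of 1.41 ± 0.23 (limma adjusted p = 0.000667) and 1.85 ± 0.23 (limma adjusted p = 3.69e-05). KRT86, also of the hair cortex, had 32 and 29 in SB, 35 and 66 at 3 days and 47 and 50 at 7 days. Against SB the log2 values were 0.64 (limma adjusted p = 0.146) and 0.65 (limma adjusted p = 0.0958). Without 3-day replicate 1 the 3-day value was 1.09 (limma adjusted p = 0.0394). KRT81 and KRT86 share 44.6% and 39.9% of their 50-base stretches with other genes, in large part with each other, so their counts are uncertain too.

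Of the 8 keratins that passed between 7 and 3 days, KRT3, KRT6A, KRT16 and KRT79 were higher at 7 days and KRT7, KRT18, KRT75 and KRT80 lower. The log2 fold change was 1.24 ± 0.34 for KRT16 (limma adjusted p = 0.0166), 1.24 ± 0.35 for KRT79 (limma adjusted p = 0.0182) and 0.85 ± 0.30 for KRT6A (limma adjusted p = 0.049). KRT18 fell by 0.27 ± 0.08 (limma adjusted p = 0.026). Without a filter on low values KRT3, KRT75 and KRT80 alone of these 8 passed. The calls of KRT6A, KRT7, KRT16, KRT18 and KRT79 each failed in at least 2 of the 4 fits that left out a TGFβ library. In these fits the log2 fold change ran from 0.61 to 1.09 for KRT6A and from -0.61 to -0.29 for KRT7. It ran from 0.77 to 1.71 for KRT16, from -0.34 to -0.21 for KRT18 and from 0.99 to 1.48 for KRT79. KRT75 and KRT80 passed in all 3 comparisons under every alternative run.

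**Figure D3:**
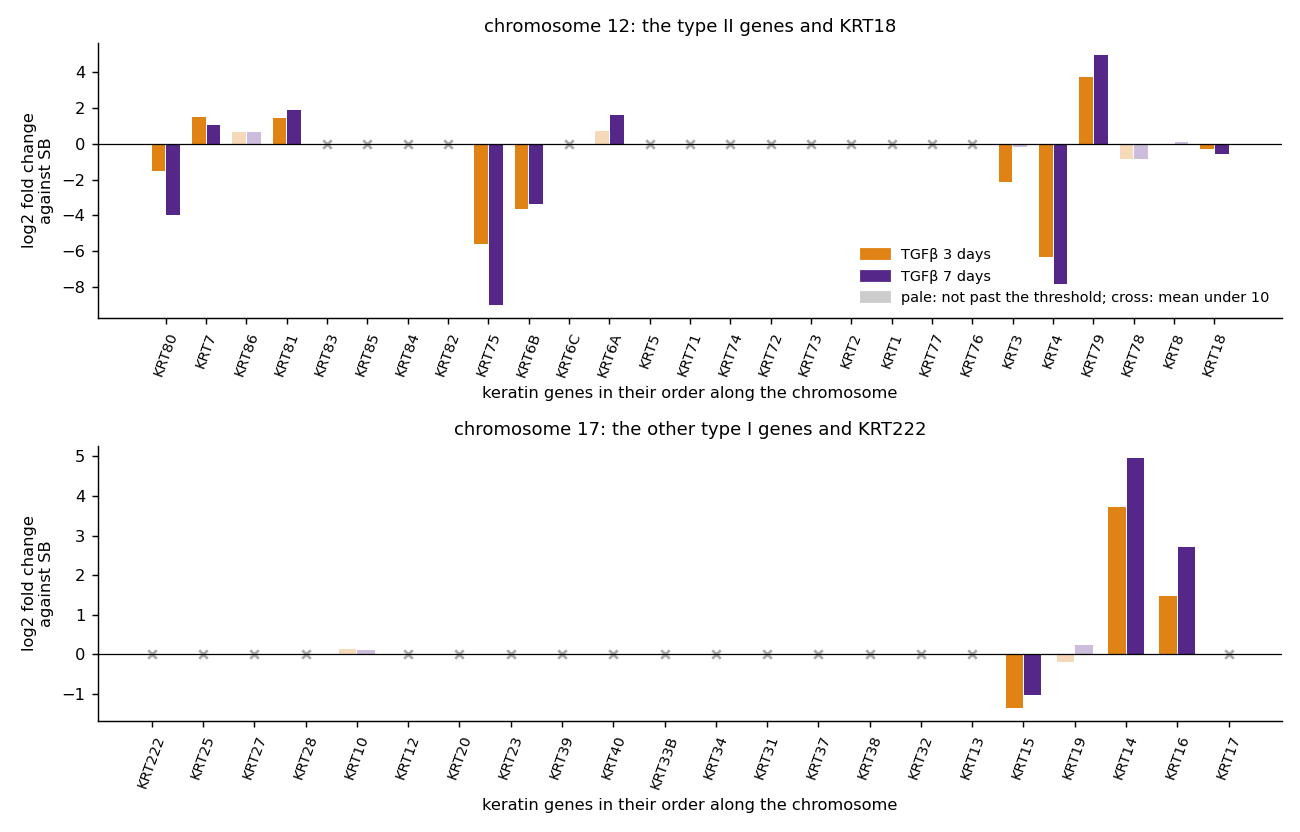
Log2 fold changes against SB along the keratin clusters of chromosome 12 and chromosome 17, with genes equally spaced in their order; orange bars are 3 days and purple bars 7 days of TGFβ, pale bars missed the threshold and grey crosses mark a mean under 10. KRT3, KRT4, KRT79 and KRT78 stand side by side with bars of different sign, and the KRT14 bars, with SB at 0, depend on the pseudocount.

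Position in the cluster went with no single direction. KRT3 at chr12:53183469-53189901, KRT4 at chr12:53200333-53207900, KRT79 at chr12:53215192-53228095 and KRT78 at chr12:53231588-53242876 are consecutive genes on the minus strand. At 7 days against SB their log2 fold changes were -0.19, -7.79, 4.92 and -0.85. KRT80 and KRT7, the first 2 keratins of the cluster and on opposite strands, had -3.97 and 1.06. KRT75 and KRT6B, also neighbours, both fell. On chromosome 17, KRT15 fell and KRT19 beside it missed the threshold, while KRT14 and KRT16, the next 2 keratins, rose.

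Levels were compared between keratins per kilobase of the longest annotated transcript. The summed level of all 49 was 46290 and 51435 normalized counts per kilobase in SB, 43510 and 49789 at 3 days and 45886 and 39507 at 7 days. The group means were 48863 ± 3638 (SD, n = 2), 46649 ± 4439 and 42697 ± 4510. The 3-day libraries overlapped both other groups, while both 7-day libraries lay below both SB libraries, the nearest by less than the gap between the SB libraries. The order was the same as a share of the library, where keratins made up 0.296% and 0.338% of library counts in SB, 0.259% and 0.299% at 3 days and 0.28% and 0.241% at 7 days. With 2 libraries a group an exact permutation test cannot give a p below 0.333, so sums and shares were not tested.

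The make-up of this pool differed between SB and TGFβ. KRT7 made up 7.79% and 7.40% of the keratin level in SB, 21.8% and 23.4% at 3 days and 18.7% and 17.5% at 7 days. KRT75, KRT80 and KRT4 together made up 9.54% and 8.95% in SB, 0.889% and 0.81% at 3 days and 0.154% and 0.161% at 7 days. The simple epithelial keratins took 89.1% and 89.9% in SB and from 97.8% to 98.2% in the TGFβ libraries. KRT8 and KRT18 together took 74.5% and 74.4% in SB, 69.7% and 67.2% at 3 days and 68.7% and 71.0% at 7 days. These shares depend on the transcript length taken. Over the canonical transcript, chosen after seeing the data, KRT7 took 5.6% and 5.31% in SB, 15.96% and 17.21% at 3 days and 13.67% and 12.65% at 7 days. KRT8 and KRT18 together then took 81.47% and 81.31% in SB, 77.73% and 75.69% at 3 days and 77.07% and 78.89% at 7 days. In these bulk samples a lower share of cells with a keratin and less of its RNA in each cell cannot be told apart.

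**Figure D4:**
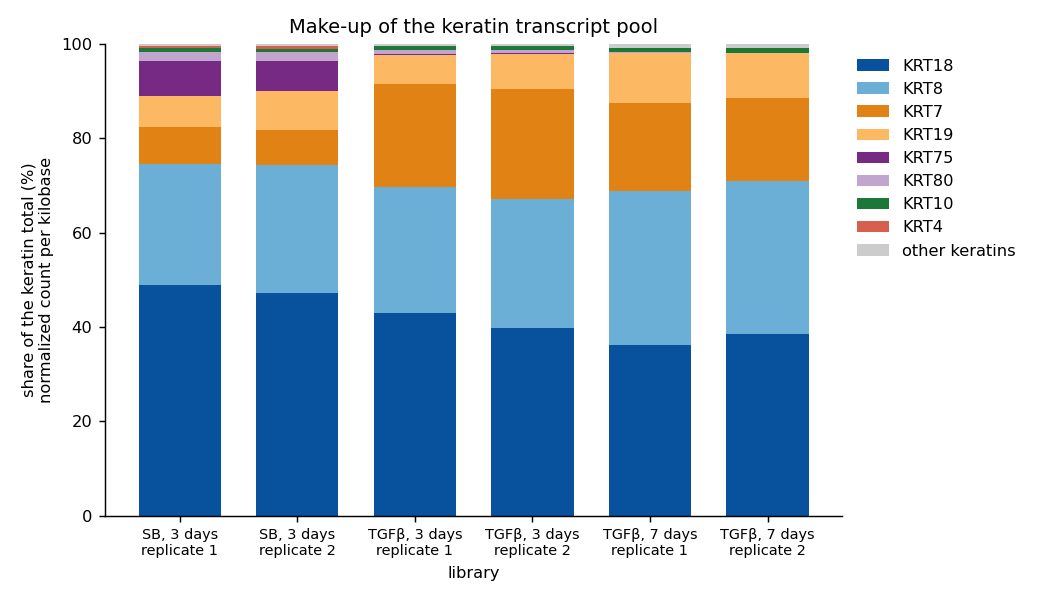
Share of each keratin in the summed keratin level per library, in percent, from normalized counts per kilobase of the longest transcript; each bar is 1 library and adds to 100%. The KRT7 segment widens from 7.79% and 7.40% in SB to 21.8% and 23.4% at 3 days, and the KRT75 segment is present in SB and hardly visible in TGFβ.

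Since filaments pair the types, the balance of type I to type II was computed from the same levels. It was 1.32 and 1.30 in SB, 1.01 and 0.925 at 3 days and 0.927 and 0.975 at 7 days. On this scale both TGFβ groups lay below SB and overlapped each other. The ratio of KRT8 to KRT18 was 0.524 and 0.572 in SB, 0.624 and 0.693 at 3 days and 0.897 and 0.845 at 7 days, and the groups did not overlap. The ratio of KRT7 to KRT18 was 0.159 and 0.156 in SB, 0.509 and 0.589 at 3 days and 0.517 and 0.454 at 7 days. The balance, the size of its fall from SB and these ratios depend on the transcript length taken. With the longest transcript the group means of the balance were 1.307 in SB, 0.9675 at 3 days and 0.951 at 7 days. Over all joined exons they were 1.65, 1.54 and 1.52, a smaller fall, with type I above type II in every group mean.

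Proteins that anchor or organize keratin filaments were read from a list of 18 genes, and 17 of them passed the minimum mean of 10. KRTCAP2 and KRTCAP3 are on this list for their names and not for a filament role. At 3 days against SB 3 were higher and 3 lower, at 7 days 5 higher and 5 lower, and between 7 and 3 days 2 higher and 4 lower, beside the background of all genes given above. Their median log2 fold change was 0.04 at 3 days and -0.03 at 7 days. JUP, plakoglobin of the desmosome, had 1271 and 1803 in SB, 3186 and 4297 at 3 days and 9451 and 7419 at 7 days, log2 fold change 1.29 ± 0.17 and then 2.47 ± 0.17 (limma adjusted p = 0.000174 and 3.72e-07). PKP1, the plakophilin of layered epithelium, had 23 and 21 in SB, 115 and 133 at 3 days and 144 and 134 at 7 days, 2.44 ± 0.21 and 2.61 ± 0.21 (limma adjusted p = 4.86e-06 and 1.23e-06).

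PLEC, plectin, which links keratin filaments to other structures, had 7292 and 8192 in SB, 11629 and 17875 at 3 days and 17220 and 12611 at 7 days. It rose by 0.90 ± 0.18 and 0.93 ± 0.18 on the log2 scale (limma adjusted p = 0.00266 and 0.000932). KRTCAP3, which carries keratinocyte in its name, had 89 and 125 in SB, 34 and 27 at 3 days and 36 and 26 at 7 days, -1.77 ± 0.28 and -1.75 ± 0.28 (limma adjusted p = 0.000613 and 0.000281). DSP, desmoplakin, the main anchor of keratin filaments at the desmosome, had 1728 and 2155 in SB, 2403 and 2273 at 3 days and 1827 and 1773 at 7 days. It missed the threshold against SB at both times, at 0.28 and -0.10 (limma adjusted p = 0.0839 and 0.465). Between 7 and 3 days DSP was lower, at -0.38 ± 0.11 (limma adjusted p = 0.0223).

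**Figure D5:**
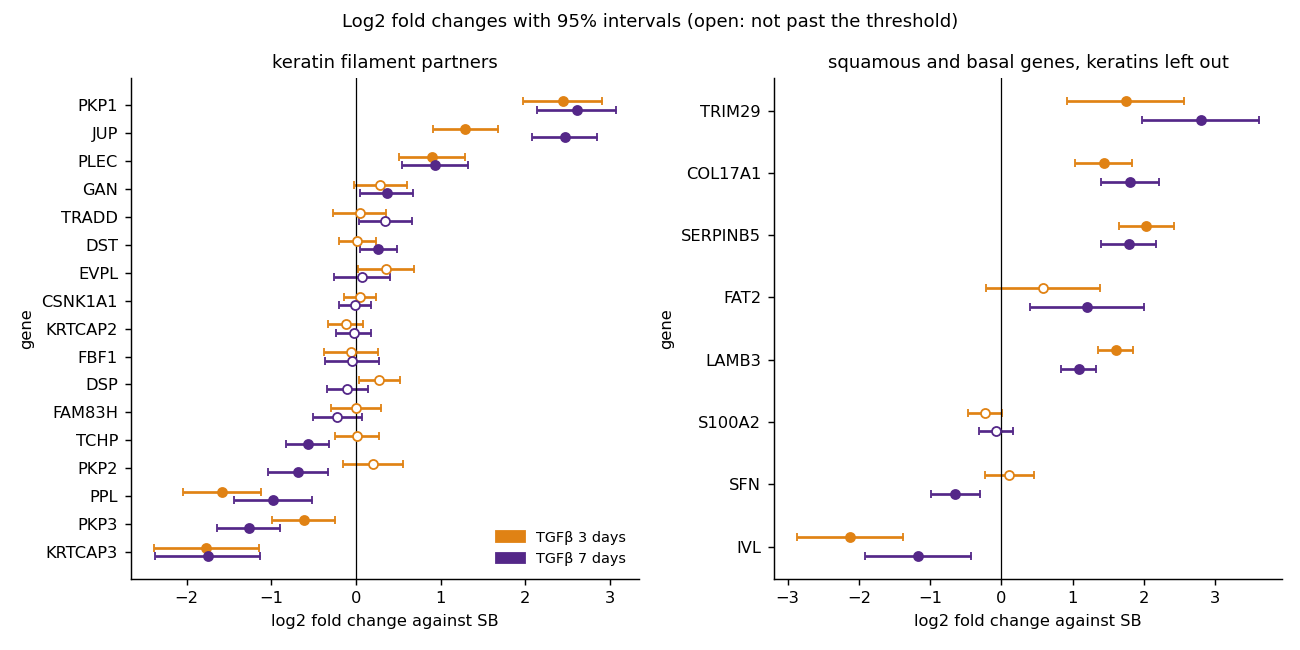
Log2 fold changes against SB with 95% intervals from limma for the tested keratin filament partners and for the tested squamous and basal genes other than keratins; orange is 3 days and purple 7 days of TGFβ, and open circles missed an adjusted p of 0.05. PKP1 and JUP lie furthest right among the partners at 7 days, at 2.61 and 2.47. KRTCAP3, listed for its name and not for a filament role, lies furthest left, at -1.75.

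Squamous and basal genes other than keratins were set beside the basal and wound keratins, of which KRT14, KRT16 and KRT6A rose and KRT15 and KRT6B fell by 7 days. Of 16 listed, 8 passed the minimum mean, with 4 higher and 1 lower at 3 days, where 29% of all genes passed, and 5 higher and 2 lower at 7 days, where 54.5% did. Between 7 and 3 days 2 were higher and 2 lower, where 33.2% of all genes passed. Their median log2 fold change was 1.01 at 3 days and 1.15 at 7 days. TRIM29, a marker of squamous and basal cells, had 7 and 4 in SB, 24 and 17 at 3 days and 43 and 43 at 7 days, 2.80 ± 0.38 at 7 days (limma adjusted p = 6.92e-05). With a mean of 5.5 in SB, TRIM29 entered these counts and medians only through the TGFβ groups, where it was high. COL17A1, the hemidesmosome collagen that ties keratin filaments to the basement membrane, had 80 and 62 in SB, 179 and 206 at 3 days and 247 and 252 at 7 days, 1.81 ± 0.19 (limma adjusted p = 8.24e-06). SERPINB5, maspin, had 1146 and 693 in SB, 3811 and 3512 at 3 days and 3050 and 3101 at 7 days, 1.79 ± 0.18 (limma adjusted p = 5.81e-06). The members that fell, chosen here after their values were seen, were IVL and SFN. IVL, involucrin of the cornified envelope, had 49 and 81 in SB, 11 and 17 at 3 days and 26 and 29 at 7 days, -2.12 ± 0.34 and -1.17 ± 0.34 (limma adjusted p = 0.000604 and 0.012). SFN, the 14-3-3 protein stratifin, had 4283 and 3682 in SB, 3642 and 5061 at 3 days and 2912 and 2214 at 7 days, when it was -0.65 ± 0.16 against SB (limma adjusted p = 0.00454). TP63, the master factor of basal epithelium, stayed between 1 and 8 counts and was not tested. DSG3, DSC3, CLCA2 and SPRR3 were also untested and did not exceed 9 counts, and SPRR1A, SPRR1B and CALML3 were 0 throughout. S100A2, with 6881 and 5331 in SB, missed the threshold at -0.23 at 3 days and -0.08 at 7 days (limma adjusted p = 0.144 and 0.569).

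The cells were checked against their labels. NKX2-1, the lung lineage factor, had 2784 and 2908 in SB, 712 and 748 at 3 days and 853 and 857 at 7 days, and SOX2, a foregut progenitor factor, 1552 and 2658, 626 and 569, and 942 and 1049. EPCAM had 10180 and 9106 in SB, 6610 and 5994 at 3 days and 2988 and 3277 at 7 days, and CDH1, E-cadherin, 371 and 635, 28 and 24, and 10 and 9. All 4 passed as lower than SB at both times, with SOX2 at 7 days the nearest to the threshold (limma adjusted p = 0.000793). NAPSA, a protease of lung adenocarcinoma cells, had 99 and 234 in SB, 8 and 7 at 3 days and 9 and 5 at 7 days. VIM, vimentin, the intermediate filament of mesenchymal cells, rose from 79130 and 60300 in SB to 124252 and 120316 at 3 days and 105320 and 107556 at 7 days, 0.82 ± 0.11 and 0.62 ± 0.11 on the log2 scale (limma adjusted p = 0.000169 and 0.000571). CDH2, N-cadherin, did not exceed 1 count. Of 9 markers of blood, endothelial and liver cells HBB was 0 throughout, the highest value was 73, for CD79A in SB, and the summed level was 95 and 151 in SB, 77 to 89 at 3 days and 64 to 76 at 7 days. Their part in the keratin results was not tested.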

How the data were processed

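Libraries of polyadenylated RNA from H2087-LCC cells fell in 3 groups of 2. Per the labels and methods, the authors aligned read pairs to hg19 by STAR, counted those with a unique position per gene by HTSeq 0.6.1p1 and scaled the counts for library size. The annotation release was not given in the sources used here. The deposited values, recorded under the unit score, are normalized counts rounded to whole numbers, which cannot be turned back into reads. From the spacing of low values each library held an estimated 32018969 to 39958883 reads, so counts near 10 are imprecise.

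On the scale log2(value + 1), limma 3.58.1 (R 4.3.3) was run over the 14395 genes whose mean was at least 10, on all 6 libraries together. Only the group was in the model, which left 3 residual degrees of freedom per gene. Through the moderation, the intervals and p-values also draw on the spread of the other genes tested. Two-sided p-values of the moderated test (empirical Bayes, variance trend by mean level) were adjusted over all genes tested by the Benjamini-Hochberg method, with a threshold of 0.05. On simulated data 193 of 200 changed genes and 10 unchanged genes among 14379 passed. The simulation drew each library independently, with a dispersion of 0.01 for every gene, and far fewer genes changed than were called in the data. It gives no error rate for the keratin calls. Gene positions, lengths and shared 50-base stretches came from GENCODE v44 on GRCh37. Every keratin with a mean of at least 10 is named with its values, and of the rest those with 10 in any library. Of the other lists, DSP, PLEC, TP63, the EMT and lineage markers and the 3 genes with the largest called change at 7 days against SB are named. The members and lists were chosen with earlier results of these data known. Pseudocount, filter, scaling, trend, libraries in the fit, replicate block, a minimum fold and the transcript length were varied, and each library was left out in turn.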

Additional observations from a re-analysis of the deposited data

Results flagged for a closer look

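For 8 keratins the level differed between 7 and 3 days of TGFβ by limma. Time in culture differed along with time in TGFβ, with no SB library at 7 days, so they cannot be told apart. The difference, 7 days minus 3 days on the log2 scale, was -3.42 for KRT75, -2.42 for KRT80, -0.45 for KRT7 and -0.27 for KRT18. It was 1.96 for KRT3, 1.24 for KRT16, 1.24 for KRT79 and 0.85 for KRT6A. Groups of 2 libraries are too small for a search for outlying libraries.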

How the results depend on the processing

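Of 785 refitted fold changes of named keratins, 716 kept their direction and side of the threshold, 35 lost a call, 19 gained one and 15 turned direction. Where no cause is given below, it was not tested. Keratin calls between 7 and 3 days, 8 as reported, came to 5 without a filter on low values, 3 of the 8 and 2 among the keratins not tested before, 5 with a mean of at least 50, which tests fewer genes, 5 with an absolute log2 fold change over 1, and 4 to 6 with 1 library left out. Without a filter 2 partners passed at 3 days in place of 6 and 6 at 7 days in place of 10, and with the fold minimum 4 at 7 days. Between 7 and 3 days, 6 as reported, they were 0 without a filter by limma, where 6 had an unadjusted p under 0.05, 3 without a trend, 1 with the fold minimum and 3 to 5 with 1 library left out. Squamous genes with a mean of at least 50 gave 3 calls at 3 days in place of 5 and 4 at 7 days in place of 7. Between 7 and 3 days, 4 as reported, they gave 0 without a filter by limma, with 3 at an unadjusted p under 0.05, 2 with a mean of at least 50, 2 with equal library totals, 1 without a trend, 1 with the fold minimum and 0 to 3 with 1 library left out, the 0 being without 7-day replicate 2, where 2 had an unadjusted p under 0.05.

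Over all joined exons the summed keratin level in SB, at 3 days and at 7 days was 29924, 25470 and 23068, and the type I to type II balance 1.65, 1.54 and 1.52. Over the canonical transcript, an alternative chosen after seeing the data, the sums were 68048, 63552 and 58777 and the balance in SB 1.35. Lengths differ by construction, and the sums kept their order. Fold changes that turned direction were all of values past no threshold as reported. KRT86 between 7 and 3 days was -0.00534 with median-of-ratios scaling. With 1 library left out, KRT10 lay between -0.0878 and 0.377 at 3 days, -0.114 and 0.350 at 7 days and -0.0585 and 0.0058 for the difference of the TGFβ times, KRT8 between -0.142 and 0.0907 at 3 days and between -0.0074 and 0.223 at 7 days, KRT19 from -0.418 to 0.0166 at 3 days, and KRT3 from -0.419 to 0.0332 at 7 days. Between 7 and 3 days, KRT6B ran from -0.368 to 0.953, KRT78 from -0.766 to 0.737 and KRT86 from -0.437 to 0.459.

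The labels number the libraries of each group 1 and 2 without saying what a number shares. Over the 11389 genes averaging 100 or more, the replicate differences correlated at 0.21 between SB and 3 days, -0.13 between SB and 7 days and -0.65 between the TGFβ times, so the numbers were not taken to pair the libraries. With the replicate block 12, 12 and 9 keratins passed, and with the 7-day numbers exchanged, chosen after seeing the data, 13, 13 and 10. Scaling moved the median of all genes by at most 0.06 on the log2 scale. Low counts limit KRT3, KRT4, KRT6B, KRT14, KRT78 and KRT79, and KRT75 at 7 days. Sequence shared with other genes limits KRT6A, KRT6B, KRT81 and KRT86 most, then KRT14, KRT16, KRT8 and KRT18.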

Other observations

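Among the 10 keratins with a mean of at least 100, replicate 2 of the 3-day TGFβ group was the higher in 10, replicate 1 of the 7-day group in 9, and replicate 2 of the SB group in 7. KRT10 counted among the 10 at 3 days with only 867 against 868. The same share over all genes was not computed, so this is not read as a trait of keratins. Replicate differences over 11389 genes correlated at -0.65 between the TGFβ times. In 17 of the 28 keratin promoters available, most of them of members under a mean of 10, the 250 bases before the start held TATAAA. The share was 11.3% in 27305 promoters. No count in any library was found for 13 of the 49 keratins.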
